A study of Mus musculus with 24 samples.

Results

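The transcripts described here are 139 long intergenic noncoding RNAs (lincRNAs) that were read in the testis of the mouse, lie near protein-coding genes and were not well above background on all 3 arrays of any of 3 germ cell-related cell lines. They were chosen from the study's table of testis lincRNAs near protein-coding genes, of which 193 could be read on the arrays. A lincRNA was kept if its probe was well above background on fewer than 3 arrays of each cell line and if the study did not also list it as conserved in human, as read in a cell line or as a target of its RT-PCR. In this way 48 lincRNAs were left out, and another 6 were left out because they lie beside Rcc1, Tnp1, Cldn or Ccl21 genes. The 139 probes stand for 127 loci, among 60804 transcript probes on the array. The study had listed these lincRNAs for their level in testis over the other tissues, and the flags of the cell lines were used in the choice. Their levels in testis, in the other tissues and in the lines are therefore given as a description, with no test.

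Brain, heart, kidney, liver and testis were taken from 8-week-old male ICR mice, an outbred strain, and 3 arrays were run for each tissue. Another 3 arrays were run for each cell line. F9 is an embryonal carcinoma line, grown here on gelatin. GC-1 was derived from germ cells and has traits of type B spermatogonia and primary spermatocytes. GC-2 likewise resembles spermatocytes. No treatment is named for any group, and each line is a single established line. The methods describe biological replicates. Nothing in the labels says that the 3 arrays of a line came from separate cultures, so that p-values for the lines measure only the spread between these arrays, which may be technical.

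LincRNAs are transcribed from their own start sites between protein-coding genes, are often spliced and polyadenylated, and do not code for a protein. Many are read in few tissues, and the testis, where spermatogonia divide, spermatocytes go through meiosis and spermatids are reshaped into sperm, is known for reading many of them. A lincRNA can share a promoter region with a gene that starts nearby on the opposite strand, run along behind a gene, or overlap it, and its distance and strand are therefore given with its neighbour.

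Positions and strands were compared with the RefSeq annotation of GRCm38. The lincRNAs had a median span of 3182 bases (231 to 85699). They were listed beside 160 gene symbols in 173 listings, and 110 of the 139 were listed with 1 neighbour. The median gap between lincRNA and listed gene was 3226 bases. Of 160 pairs of a locus and a gene, 32 ran on opposite strands with the starts facing each other, and 32 on opposite strands with the ends facing each other. Another 28 lincRNAs lay downstream of the gene on its strand and 26 upstream of it, 13 overlapped the gene, 9 of them on the same strand, and 29 pairs could not be placed. In the 32 pairs with facing starts the median distance between the starts was 2989.5 bases, and in 16 pairs it was 3 kb or less. In the other readable lincRNAs of the table, 19 such pairs had a median distance of 7840 bases. Of their 19 listings with facing starts, 14 had the starts within 10 kb, against all 37 such listings of the 139 lincRNAs. The median of 7840 bases thus takes in starts more than 10 kb apart, and nothing is read from its difference from 2989.5. These positions are a description of the study's list, with no test.

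Sequences were printed for the start sites, because they are what a lincRNA and its neighbour could have in common. RefSeq promoter windows, from 250 bases before to 50 bases after a start, matched 28 of the 127 loci. The first 5 sequences are windows of lincRNAs with large folds over the nearest tissue, each beside a different gene, and capitals mark matches on either strand to 7 short motifs. These were the cyclic AMP response element (CRE), TGACGTCA, and the part of it written TGACG, which overlaps it. The X-box core was written GTTGCC and the site of MYB factors TAACNG. The GC box was searched as GGGCGG, the CCAAT box by its name, and the TATA box by the letters TATAAA. The window of 1700041M19Rik is at chr16:77010832-77011131 on the minus strand, that of 1700020N18Rik at chr1:91405980-91406279 (minus), that of 1700120K04Rik at chr7:127604396-127604695 (minus), that of 4932702P03Rik at chr13:24905350-24905649 (plus) and that of 4921513I03Rik at chr10:120765482-120765781 (plus).
1700041M19Rik: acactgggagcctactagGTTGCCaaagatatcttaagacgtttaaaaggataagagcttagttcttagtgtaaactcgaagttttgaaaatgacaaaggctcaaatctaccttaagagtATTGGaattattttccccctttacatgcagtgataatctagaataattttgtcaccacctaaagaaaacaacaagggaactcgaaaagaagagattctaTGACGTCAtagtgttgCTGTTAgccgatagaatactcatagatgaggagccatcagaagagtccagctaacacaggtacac
1700020N18Rik: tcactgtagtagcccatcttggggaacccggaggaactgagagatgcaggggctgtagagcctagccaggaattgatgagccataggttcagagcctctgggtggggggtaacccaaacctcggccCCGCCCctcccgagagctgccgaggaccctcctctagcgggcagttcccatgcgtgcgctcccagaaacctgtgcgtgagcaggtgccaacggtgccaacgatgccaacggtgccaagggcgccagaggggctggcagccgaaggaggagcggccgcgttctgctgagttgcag
1700120K04Rik: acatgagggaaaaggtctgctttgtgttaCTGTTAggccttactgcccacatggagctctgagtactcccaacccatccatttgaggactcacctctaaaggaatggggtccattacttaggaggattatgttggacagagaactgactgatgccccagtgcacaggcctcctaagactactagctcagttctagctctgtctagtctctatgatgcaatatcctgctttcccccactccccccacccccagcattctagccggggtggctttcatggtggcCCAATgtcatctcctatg
4932702P03Rik: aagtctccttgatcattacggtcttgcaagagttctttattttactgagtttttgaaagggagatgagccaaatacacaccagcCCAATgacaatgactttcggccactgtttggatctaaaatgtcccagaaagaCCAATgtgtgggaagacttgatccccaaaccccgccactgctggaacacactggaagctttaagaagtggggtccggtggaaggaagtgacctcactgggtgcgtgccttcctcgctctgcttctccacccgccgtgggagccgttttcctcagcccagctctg
4921513I03Rik: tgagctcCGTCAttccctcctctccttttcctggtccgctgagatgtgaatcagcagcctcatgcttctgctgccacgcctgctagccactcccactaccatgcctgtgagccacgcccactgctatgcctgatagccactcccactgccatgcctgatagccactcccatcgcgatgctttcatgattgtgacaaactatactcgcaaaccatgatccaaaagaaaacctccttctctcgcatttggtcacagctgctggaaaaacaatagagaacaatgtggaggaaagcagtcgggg

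The window of 1700041M19Rik, which starts 3188 bases from Usp25 on the opposite strand, was the only one of the 28 with the full TGACGTCA, in the 50 bases before the start. It also held a GTTGCC, a MYB and a CCAAT match. The full element was in 1.79% of all 32851 RefSeq promoter windows. The neighbour's own window, at chr16:77013819-77014118 on the plus strand, is shown for contrast, with capitals for the same motifs.
Usp25: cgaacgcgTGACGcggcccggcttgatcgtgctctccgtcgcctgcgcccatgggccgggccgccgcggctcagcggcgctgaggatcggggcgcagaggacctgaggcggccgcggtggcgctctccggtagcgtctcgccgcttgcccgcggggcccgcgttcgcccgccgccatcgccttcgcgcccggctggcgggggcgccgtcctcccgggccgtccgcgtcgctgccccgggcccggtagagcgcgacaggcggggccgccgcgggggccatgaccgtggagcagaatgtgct

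G and C made up 79.0% of the Usp25 window and 38.0% of that of 1700041M19Rik. The ratio of observed to expected CpG was 1.15 for Usp25 and 0.46 for the lincRNA. Pooled over the set, the windows of lincRNAs and neighbours differed in the same direction, but not in every pair. The ratio was 0.872 for Gm19583 and 0.256 for Pdgfra beside it. None of the 28 lincRNA windows was CpG-rich (50% G and C or more and an observed to expected ratio of 0.6 or more), against 94 of 162 windows (58.0%) of the neighbouring genes. In all protein-coding genes 45.1% of windows were CpG-rich and in all lncRNA genes 12%. The median ratio was 0.187 in the lincRNAs, 0.679 in their neighbours and 0.245 in all lncRNA genes. Among the other readable lincRNAs of the table, 0 of 13 windows were CpG-rich, so that the low content was shared with the lincRNAs that were left out.

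**Figure D1:**
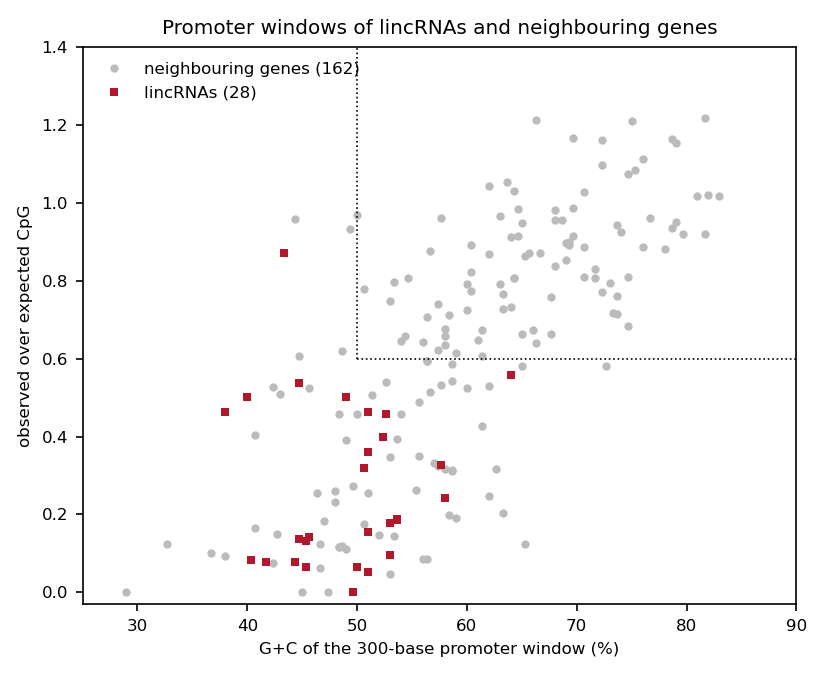
Each point is a promoter window of 300 bases, with its G and C content on the x axis (%) and its ratio of observed to expected CpG on the y axis, for 28 lincRNAs (red squares) and for 162 windows of the neighbouring genes (grey circles). Dotted lines mark the limits of 50% and 0.6, and no red square lies in the upper right region.

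A CCAAT was found in 15 of the 28 windows (53.6%), against 37.4% of all windows, and GGGCGG in 4 (14.3%), against 35.7%. CCAAT was in 53.8% of the windows of the other readable lincRNAs and in 36% of those of all lncRNA genes, and GGGCGG in 7.69% and 16.3%. MYB matches were in 8 (28.6% against 23.3%), TGACG in 6 (21.4% against 20.8%), GTTGCC in 3 (10.7% against 12.5%) and TATAAA in 2 (7.14% against 13.6%). These are matches of letters in a window and no evidence of binding.

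Facing starts close enough to share a printed window are shown for 4930527E20Rik, which starts 129 bases from 1700001O22Rik on the opposite strand. The window of 1700001O22Rik (chr2:30803615-30803914, minus strand) takes in both starts, and capitals run from one start to the other.
1700001O22Rik: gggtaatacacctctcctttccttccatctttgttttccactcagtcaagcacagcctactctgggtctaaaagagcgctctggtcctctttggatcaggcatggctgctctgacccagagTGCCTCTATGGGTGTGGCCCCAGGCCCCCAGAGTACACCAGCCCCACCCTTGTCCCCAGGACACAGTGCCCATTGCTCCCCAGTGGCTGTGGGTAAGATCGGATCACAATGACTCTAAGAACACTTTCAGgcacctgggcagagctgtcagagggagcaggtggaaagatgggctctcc

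Both starts lay in sequence with few CpG (ratio 0.08). The normalized log2 level of 4930527E20Rik, which is the log2 of its processed signal minus the 75th percentile of the array, was 1.97, 2.14 and 2.23 on the 3 testis arrays. It was not well above background on any of the other 21 arrays, and it was at least 10.6-fold higher in testis than in the nearest tissue. Still closer, at 60 bases, lay the starts of 1700030M09Rik and 1700018B08Rik, and the lincRNA AK132686 started 222 bases from Snhg8, the host of a small nucleolar RNA.

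On the arrays, 95 of the 139 lincRNAs were well above background on all 3 testis arrays and on none of the 21 others. Another 44 showed a signal on 1 to 7 other arrays. Of these, 21 had it on 1 array alone, and AK077057 had it on 7. A lincRNA was well above background on 0 of the 12 other tissue arrays in 107 cases and on 0 of the 9 line arrays in 113. The choice used the testis pattern and the line flags, and no share of all probes is given. Nothing is therefore read from these counts. Of the 92 signals well above background outside testis, 46 were on the replicate 1 arrays, which were hybridized together on 1 slide. Replicates 2 and 3 of testis, brain, kidney and liver were on slide 2, and those of heart and the lines on slide 3. Between testis and the lines, only the replicate 1 arrays thus shared a slide. On GC-2 replicate 1, 11 lincRNAs were well above background, against 1 and 2 on the other GC-2 arrays, and on brain replicate 1 there were 11, against 4 on each other brain array. Over all probes, too, the replicate 1 array had the most probes well above background in every group but liver. The counts over all probes were 28655, 26120 and 27052 for the GC-2 replicates 1 to 3, and 33692, 30232 and 31647 for brain. Liver replicate 1 and testis replicate 2 each had a scan run of their own. The part of the slide and of the scan in these signals was not tested.

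**Figure D2:**
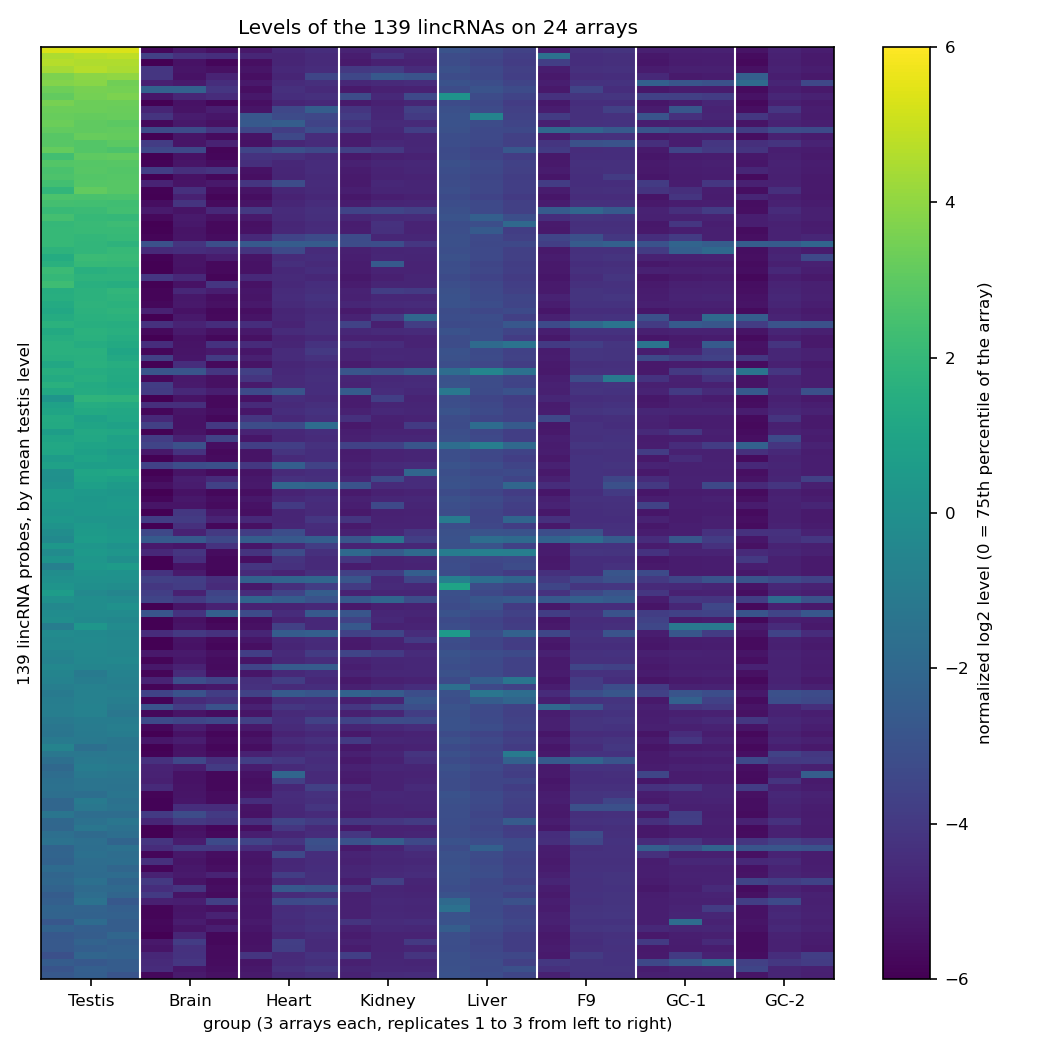
Normalized log2 level (colour, 0 is the 75th percentile of the array) of the 139 lincRNAs (rows, by mean testis level) on the 24 arrays (columns, replicates 1 to 3 of each group from left to right). The testis columns run from -2.67 to 5.34 in the mean of the 3 arrays and the liver columns are lighter than those of the other tissues.

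Mean testis levels ran from -2.67 to 5.34 with a median of 0.36, and the SD over the 3 testis arrays had a median of 0.17. The testis SD was above 0.5 in 11 lincRNAs, and no probe was saturated. The criteria asked for 5-fold or more over each of the 4 tissues with limma's adjusted p at or below 0.05. By these, 94 of the 139 were called, against 5.03% of all probes. Over single tissues, by fold and adjusted p alone, 137 were called against brain (12.3% of all probes), 125 against heart (11.5%), 130 against kidney (11.5%) and 94 against liver (10.3%). In the same way, the lines gave 122 calls against F9 (11.2%), 131 against GC-1 (11.9%) and 132 against GC-2 (12.4%). Since the choice used these contrasts, nothing is read from the counts. The 3 testis arrays lay above all 12 other tissue arrays in 132 lincRNAs (13% of all probes) and above all 21 other arrays in 129 (10.5%).

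All 45 lincRNAs that missed the criteria missed them over liver, 28 of them over liver alone. In limma with the fold and p over liver left out of the criteria, 122 of the 139 were called, and 3873 of all 60804 probes. Where a probe was not well above background, its level is only an upper limit, and folds are given as "at least", from the mean in testis over the lowest signal well above background on each dim array or the probe's own signal there, whichever was higher. These lower bounds over the nearest tissue had a median of 3.14 and were 5-fold or more in 58 lincRNAs and 10-fold or more in 28. In 34 the bound was 1 or less and no fold is given. Liver set the bound in all 139, and over brain, heart and kidney alone the median was 7.96, with 87 lincRNAs at 5-fold or more. Of the 139, 129 were well above background on no liver array, so liver as the nearest tissue is no sign of a liver signal. The 75th percentile of intensity was 30.7 to 49.8 on the liver arrays and 305 to 384 on the testis arrays. The lowest signal well above background was highest on liver replicate 1, at 25.3. The part of the scaling was not tested. Over the nearest cell line it was 6.85, with 81 at 5-fold or more, and F9 set it in 134. In tissue RNA, fewer cells of a type and less RNA per cell cannot be told apart.

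**Figure D3:**
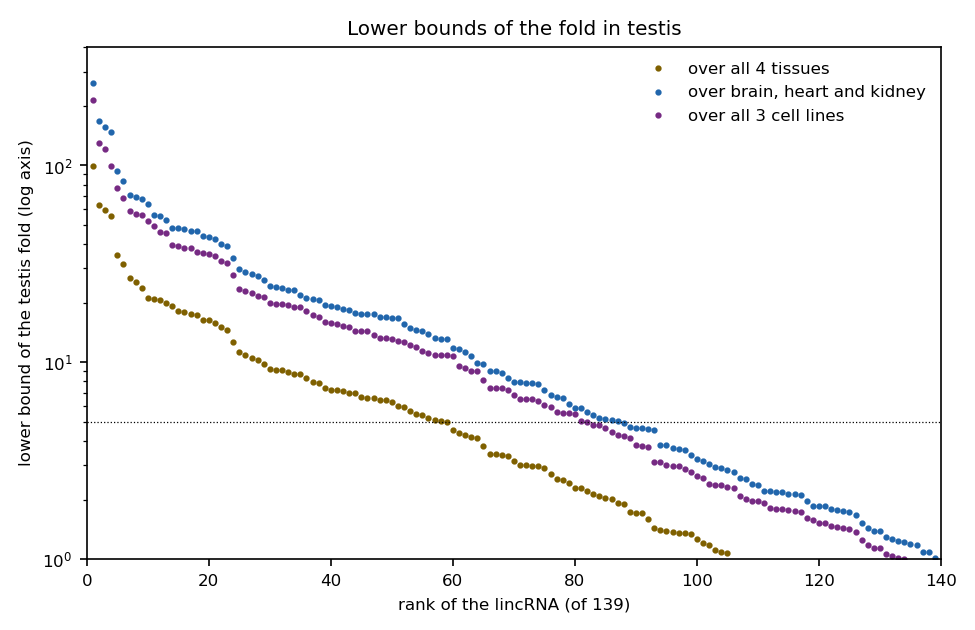
Lower bounds of the fold in testis (log axis) over all 4 tissues, over brain, heart and kidney, and over the 3 cell lines, each ranked on its own from the largest. Bounds of 1 or less are not drawn, the dotted line is at 5-fold, and 58, 87 and 81 lincRNAs reach it.

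Marker probes gave no check of the tissue labels. Those that could be identified come from a table of transcripts also read in the lines. The probes of every cell type were well above background on all testis arrays, and none on all 3 arrays of another tissue. Their pattern over the tissues and over the lines may thus follow from how they were found, and it is given as a description. The counts of probes read in each line are therefore no comparison of the lines. All 8 spermatid probes, among them Acr, an acrosomal protease, were well above background on all testis arrays and none on all 3 arrays of another tissue. Their summed log2 level was 10.5 to 10.6 in testis and 3.24 or less in the lines, where F9 and GC-2 each had 4 of the 8 above background on all 3 arrays, and GC-1 had 6. All 9 probes for spermatogonia and spermatocytes, among them Stra8, which is needed for entry into meiosis, were read in testis and F9, 1 was read in GC-1, and the GC-2 line had none on all 3 arrays. Zfp42, Zscan10 and Trim71, genes of pluripotent cells, were well above background on all 3 arrays in F9 and testis and in no other group. The part of these differences in the lincRNA levels was not tested.

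The folds were largest for lincRNAs beside genes of several kinds. AK005964 (chr5:102479208-102479994, minus strand) lies within the span of Arhgap24, which codes for a GTPase-activating protein. It was at 5.34, 5.35 and 5.34 on the testis arrays and between -5.73 and -2.94 on the 21 others, none of them well above background. It was at least 99.1-fold higher in testis than in the nearest tissue and at least 216-fold higher than in the nearest line. The testis arrays differed by 0.01, and the gap to the highest other array was the widest among the 139.

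1700020N18Rik (chr1:91404879-91406029, minus strand), which lies 5454 bases downstream of Hes6, a transcription factor of the Hes family, was also listed with Per2, a component of the circadian clock, and with the phosphatase gene Ilkap. Its testis levels were 4.40, 4.65 and 4.46, and the others ran from -5.48 to -3.03. It was at least 55.4-fold higher in testis than in the nearest tissue, and no other array was well above background. Beside genes of transcription and chromatin there were 22 such lincRNAs, and 15 of them met the criteria. Of the whole set 94 of 139 met them, and of all probes 5.03%. Nothing is read from the counts of this list or of those below. 1700120K04Rik (chr7:127603903-127604445, minus strand), whose end lies 298 bases from the end of Rnf40, a ubiquitin ligase that modifies histone H2B, was at 3.65, 3.91 and 3.99 in testis, at least 35.3-fold over the nearest tissue. GC-2 replicate 1, at -2.36, was its only other array well above background. 4930455F16Rik, beside the histone acetyltransferase gene Crebbp, was at 3.32, 3.29 and 3.26 and at least 23.9-fold higher. AK015071, beside Arid5a and Kansl3, was at 2.62, 2.55 and 2.58. At the low end of this list, AK029951 beside the histone deacetylase gene Hdac4 (-2.73, -1.80 and -2.44) and 4930488B22Rik beside Hlx (-2.66, -2.42 and -2.27) had bounds under 1.

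Of the 9 lincRNA probes, at 7 loci, beside genes of ubiquitin and the proteasome, 7 met the criteria. 1700041M19Rik (chr16:77004228-77010881, minus strand), whose window is printed above, lies beside Usp25, which removes ubiquitin from proteins. It was at 3.55, 3.32 and 3.29 in testis and between -6.06 and -3.25 elsewhere, with no other array well above background, and at least 25.6-fold higher than in the nearest tissue. AK005895, beside Klhdc10, was at 2.37, 2.85 and 2.88, and 4930556L07Rik, beside the proteasome inhibitor gene Psmf1, at 2.19, 1.59 and 1.73. The 2 probes beside Ube2d3, a ubiquitin-conjugating enzyme, share a locus and were the ones that missed, with testis levels between -2.21 and -1.36.

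The list of vesicle traffic and the cytoskeleton had 16 lincRNA probes at 12 loci, and 13 of the probes met the criteria. Pmis2 (chr7:30670722-30671605, minus strand) lies upstream of Haus5, a subunit of the augmin complex that brings gamma-tubulin to spindle microtubules. Its transcript NR_027848 was at 4.65, 4.58 and 4.58 in testis and between -6.04 and -3.23 elsewhere, at least 59.4-fold over the nearest tissue. The second Pmis2 transcript, NR_027849, was at 3.20, 3.19 and 3.22 and at least 19.2-fold higher, with heart replicate 1 and liver replicate 2 (-0.60) above background. AK016793 (chr6:87993136-87994179, minus strand) lies downstream of Rab7, a small GTPase of late endosomes. It was at 3.78, 3.86 and 3.42 in testis, and it was above background on GC-1 replicate 1 and GC-2 replicate 1 (-1.83). AK015749, beside the endosomal kinesin gene Kif16b, was at 3.10, 3.48 and 3.64 in testis, and liver replicate 1 stood at 0.15 and above background.

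Beside genes of metabolism and DNA repair, 10 of 15 lincRNAs met the criteria. 4932702P03Rik (chr13:24905596-24907280, plus strand) ends 299 bases from the end of Aldh5a1, which oxidizes succinic semialdehyde in the breakdown of GABA. It was at 4.52, 4.73 and 4.81 in testis and at least 63.0-fold over the nearest tissue. Only F9 replicate 1, at -1.54, was above background among the other arrays. 4921513I03Rik (chr10:120765732-120774485, plus strand), beside the methionine sulfoxide reductase gene Msrb3, was at 3.30, 3.05 and 2.98, with heart replicate 1 above background. AK006483, beside the fatty acid binding protein gene Fabp12, was at 2.64, 2.77 and 2.81. D930007P13Rik, beside the uracil glycosylase gene Smug1, was at -2.53, -2.71 and -2.49, with a bound under 1.

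**Figure D4:**
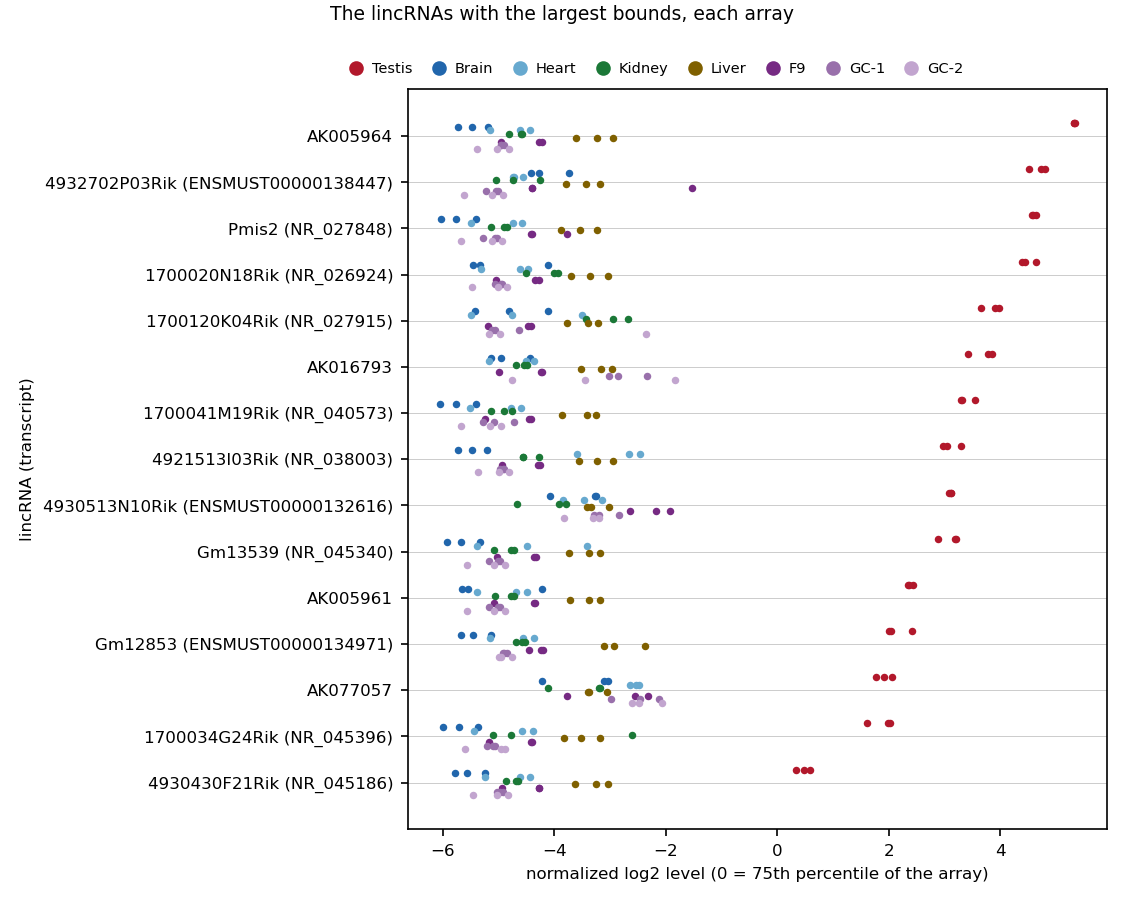
Normalized log2 level on each of the 24 arrays (points, coloured by group) for 15 lincRNAs, among those with the largest lower bounds beside each kind of neighbouring gene. The testis points lie apart from all others in each row, and 4932702P03Rik has 1 F9 point at -1.54.

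Of the 9 lincRNAs beside genes of RNA processing and translation, 6 met the criteria. 4930513N10Rik (chr8:95809033-95821697, plus strand) lies 920 bases from Cnot1, the scaffold of the CCR4-NOT deadenylase complex. It was at 3.11, 3.08 and 3.13 in testis and at least 21.1-fold higher than in the nearest tissue, with brain replicate 1 and F9 replicate 1 (-1.93) above background. Gm12853 (chr4:118632847-118636062, minus strand), beside the ribosome assembly gene Ebna1bp2, was at 2.41, 2.05 and 2.00, and no other array was above background. In both, the testis arrays lay above all 21 others.

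Signalling genes had 14 lincRNA probes at 13 loci, and 7 of the probes met the criteria. Besides AK005964 and 1700020N18Rik, AK132862, beside Ankmy1 and the glypican gene Gpc1, was at 3.16, 2.81 and 2.65. XLOC_002404, beside the cytokine gene Mif, was at -0.29, 0.62 and 0.51 in testis and above background on 6 arrays outside testis, the highest being kidney replicate 2 at -1.41. Gm19583, beside the growth factor receptor gene Pdgfra, was at -1.07, -0.74 and -0.71. Transporter and channel genes had 10 probes at 9 loci, and 8 of the probes met the criteria. AK077057 (chr13:56430329-56434275, plus strand), beside Slc25a48 of the mitochondrial carrier family, was at 2.05, 1.92 and 1.78 and above background on 7 arrays of brain, heart, GC-1 and GC-2.

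Genes with known roles in the testis or sperm had 13 lincRNAs beside them, of which 8 met the criteria. Gm13539 (chr2:25784617-25787022, plus strand) lies inside the span of the glycosyltransferase family gene Glt6d1 on its opposite strand, and AK005961 (chr9:62267376-62267843, minus strand) lies 2886 bases downstream of Spesp1, a protein of the sperm equatorial segment. AK005961 was at 2.43, 2.37 and 2.34 in testis and between -5.67 and -3.17 elsewhere, at least 12.7-fold over the nearest tissue. 1700047F07Rik, on the opposite strand to Dmrtb1, a gene of the DM domain family that acts in the change from mitosis to meiosis, was at 1.6, 1.34 and 1.17. Gm14555, beside the X-linked homeobox gene Rhox11, was at -0.45, -0.52 and -0.58.

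Neural genes and olfactory receptors had 6 lincRNAs, of which 4 met the criteria. 1700034G24Rik (chr5:112582936-112589996, minus strand), beside Sez6l, was at 1.62, 2.03 and 1.98 and at least 8.97-fold higher, and 4930430F21Rik (chr15:31039126-31043331, plus strand), beside the delta-catenin gene Ctnnd2, was at 0.59, 0.34 and 0.48 and at least 3.39-fold higher. Neither was above background on a brain array. The other 35 probes, at 31 loci, lay beside genes in none of these lists, and 23 of them met the criteria. Among the 23 were 1700121C08Rik beside the rhomboid protease gene Rhbdl2 (3.34, 3.55 and 3.49) and 1700028D13Rik beside the lncRNA gene Miat (2.90, 2.79 and 2.99). The lists are short and share genes, and no list was tested.

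More than 1 probe was present for 10 loci, 22 probes in all. At 6 of them all probes met the criteria, at 3 some did and at 1 none. The 3 probes beside Scrib, a polarity protein, were at least 16.5-fold, 6.61-fold and 5.64-fold higher in testis, and the 3 of 1700025M24Rik beside Ociad1 at least 6.63-fold, 6.42-fold and 3.33-fold. By contrast, the transcript NR_038183 of 4930423M02Rik was at least 8.31-fold higher and the transcript ENSMUST00000130895 had a bound under 1 (-2.24, -2.39 and -2.47 in testis). The transcripts of 1700001L05Rik beside Arfgap3 parted in the same way, with one probe at least 11.2-fold higher, and so did those of 8430426J06Rik beside Mchr1, with one at least 7.93-fold higher. Within a locus the probes thus differed in whether the criteria were met, and the levels of different probes were not set against each other.

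In 7 lincRNAs the testis arrays overlapped an array of another tissue. BC100427, beside Zfp273, was at 0.23, -0.03 and -0.11 in testis and at 0.97 on liver replicate 1. AK006015, beside Aym1, was at -0.21, -0.31 and -0.44 in testis and at 0.48 on the same liver array. Both were above background on that array and on no other outside testis. AK015278, beside Agbl3, was at -1.23, -1.25 and -1.19 in testis and at -1.06 on liver replicate 3. In the other 4 (AK087742, mouselincRNA0821, ENSMUST00000130895 of 4930423M02Rik and XLOC_004538) liver replicate 1 was again the highest tissue array, and it was not well above background. In all 7, the liver value rests on 1 array.

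Near the limit that chose the set, 8 lincRNAs were well above background on 2 arrays of a line. Their 9 mean levels in those lines ran from -3.03 to -1.94 with a median of -2.52. They were AK077057, AK040253 beside Ap3m2, 4930448H16Rik beside Zfp12, XLOC_025337 beside Nudt16, XLOC_002404 beside Mif, 4933427J07Rik beside Zc3h6, XLOC_019299 beside Crlf2 and XLOC_005713 beside Prox2. Just outside, 36 lincRNAs of the table were well above background on all 3 arrays of a line, and their 51 mean levels ran from -2.59 to 4.74 with a median of -0.69. The ranges overlapped between -2.59 and -1.94.

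Although they are labelled intergenic, 24 of the probes at 22 loci overlapped the span of a RefSeq protein-coding gene, 13 on the sense strand, 6 on the antisense strand and 5 where the strand of the gene was not known. Of the 139 probes, 55 were matched to a RefSeq gene of their own, and for 3 of them that gene was classed as protein coding. The names of the probes without a match were not checked in this way. The transcript named Slc26a8, an anion transporter gene read in male germ cells and listed here beside the kinase gene Mapk14, was at -1.96, -0.96 and -1.10 in testis. That named Abca16 was at 1.33, 0.86 and 1.08 and at least 5.21-fold higher, and that named Mageb17-ps at -1.63, -1.68 and -1.33. Whether these signals come from noncoding transcripts or from the genes cannot be told apart with 1 probe.

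Probes were identified for 5 neighbouring genes, 4 of them probes for lncRNAs at the gene and 1 for an mRNA. These were fitted by limma with all probes, and each difference is that of a normalized log2 level. The probe of Fam71f1 was listed by the study for testis, so that its values are a description. It was at 1.72, 2.23 and 2.38 in testis and on no other array above background, while AK015390 beside it was at -2.14, -1.55 and -1.70 in testis, with a bound under 1. The mRNA probe of Cbfb, a partner of the RUNX transcription factors, was at -0.65, -0.89 and -0.75 in testis. It was higher in testis than in brain by 2.48 (adjusted p = 2.94e-05), heart by 1.62 (adjusted p = 0.000939), kidney by 1.86 (adjusted p = 0.000315) and liver by 2.15 (adjusted p = 6.77e-05). The probe was, however, well above background on only 2 brain arrays, 1 heart array, 1 kidney array and no liver array. Many of these tissue levels are thus upper limits, and as a lower bound it was at least 1.44-fold higher in testis than in liver, the nearest tissue. Against the lines it was lower, with differences of -0.72 for F9, -0.80 for GC-1 and -1.14 for GC-2 (adjusted p = 0.00401, 0.00211 and 0.000184), and this direction turned with scaling by the probes above background on all arrays. Cbfb was thus read in the 3 lines. Its lincRNA AK052254 (0.03, 0.06 and 0.05 in testis) was above background on 1 array of the lines, GC-2 replicate 1. The choice of the set had asked for few such arrays, so nothing is read from this difference.

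For Frmd4a, a gene of the FERM domain family, the lncRNA probe uc008ien.2 had been listed for brain. It was well above background on all 3 brain arrays and on no testis array, and the lincRNA Gm13189, which runs along Frmd4a on its strand, was at 0.28, 0.39 and 0.42 in testis and on no other array above background. The lncRNA probes of Sez6 and Ptp4a2 were above background on all 24 arrays. Ptp4a2, a phosphatase, was lower in testis than in heart by a difference of -1.51 (adjusted p = 0.000366) and in liver (-1.51, adjusted p = 0.000315), and not called against brain (-0.22, adjusted p = 0.522). With the percentile over probes above background, limma called neither heart (-0.48, adjusted p = 0.155) nor liver (-0.19, adjusted p = 0.568), and the call for liver was also lost with quantile normalization (-0.55, adjusted p = 0.114) and normexp (-0.37, adjusted p = 0.202). Its lincRNA AK007136 was at -0.92, -0.75 and -0.87 in testis and above background on 1 array of GC-1. Sez6 was lower in testis than in the 4 tissues by differences from -1.88 to -1.06, a direction that turned with quantile normalization against 3 of them. Gm11190 beside it was at -0.86, -0.67 and -1.03. At an adjusted p of 0.05 or less in limma, of all probes 20.4% were higher and 54.8% lower in testis than in brain, 19% and 63.6% than in heart, 19.3% and 61.5% than in kidney, and 18% and 66.5% than in liver. Against the lines, 18.7% were higher and 63.8% lower than in F9, 19.5% and 62.4% than in GC-1, and 20% and 61.3% than in GC-2. Calls of single probes at this limit are thus frequent in both directions. These shares hold for the main scaling alone. Under it the median over all probes of testis minus the other tissues was -0.20. It was 0.87 with the percentile over probes above background and 1.93 without scaling. The shares are therefore no measure of how many transcripts are lower in testis.

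**Figure D5:**
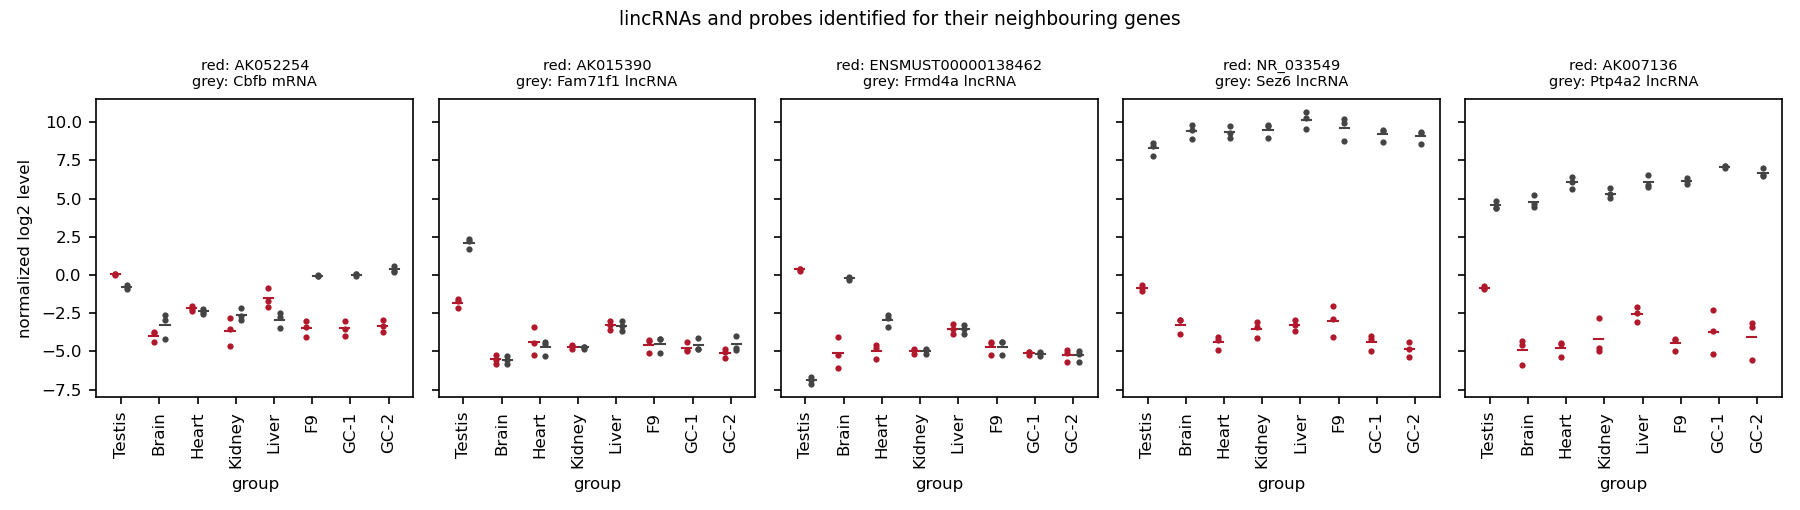
Normalized log2 level on each array (points, with a line at the mean of 3) of 5 lincRNAs (red) and of the probe identified for the neighbouring gene (grey), in 8 groups. Levels of different probes cannot be compared. Each lincRNA is highest in testis, the tissue for which the study had listed it, so this follows from the choice. Of the grey probes, that of Fam71f1 is highest in testis, Frmd4a in brain and Cbfb, Sez6 and Ptp4a2 in other groups. The Fam71f1 and Frmd4a probes had also been listed for these tissues.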

How the data were processed

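Total RNA of 5 tissues and 3 cell lines was labeled with Cy3 (Quick-Amp) and hybridized to 24 Arraystar mouse lncRNA V3.0 arrays. The labels give Trizol extraction, whereas the methods name a column kit. The authors deposited Feature Extraction files with the intensity of each spot and its flags, and a matrix of the processed signals, not normalized between arrays. Between 18257 and 37393 of 60804 probes per array were well above background. Intensities were put on the log2 scale minus the 75th percentile of each array. Contrasts were fitted with limma 3.58.1 in R 4.3.3 (lmFit, eBayes, Benjamini-Hochberg over all probes) on 15 tissue arrays, or on 12 arrays of testis and lines. Python 3.11.15, numpy 2.4.6, pandas 2.3.3 and matplotlib 3.10.9 were used for the rest, and the tests were tried on simulated data. The number of arrays limits the precision.

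The text names the 2 loci with the largest bound in each neighbour list, members beside genes with identified probes, loci with several probes, members near the line limit and members that overlap a tissue array. One of these is not reported here. Other members are examples chosen after their values were seen. The members, lists and rules were chosen with earlier results of these data known. The study took neighbours within 10 kb, and the listing of AK132892 beside Gm20871 lies farther. Names and positions come from the study's tables, whose folds and p-values were not used. Promoter windows come from RefSeq GRCm38.p6. Probes for most neighbouring genes were not identified. Alternatives were another normalization (quantile, the median, the percentile over probes above background), normexp with an offset of 50, a filter on dim probes, replicate and slide as blocks, arrays left out and the methods' t-test. normexp used the median in place of the mean spot signal.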

Additional observations from a re-analysis of the deposited data

How the results depend on the processing

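The number of lincRNAs that met the criteria was 94, beside 3056 of all probes. With normexp it was 36 (1525 of all probes) and with the flag for a positive and significant signal 60 (2110). With quantile normalization it was 116 (3700), with the percentile over probes above background 131 (4172), and without scaling between arrays, an alternative chosen after seeing the data, 139 (5612). Leaving out 1 array gave 89 to 98. Against the lines the counts were 122 (F9), 131 (GC-1) and 132 (GC-2), with 51, 57 and 58 under normexp and 119 to 128, 129 to 132 and 128 to 133 with 1 array left out. The testis arrays lay above all other tissue arrays in 132 lincRNAs, in 132 to 138 with 1 array left out (138 without liver replicate 1) and in 89 with normexp. The methods' t-test gave 94 by the criteria, both unadjusted and after Benjamini-Hochberg adjustment. The median over all probes of testis minus the other tissues was -0.20 on the log2 scale, 0.87 with the percentile over probes above background and -1.03 with normexp. The causes were not tested.

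The calls for neighbouring genes include probes that the study listed for their tissue pattern (Fam71f1, Frmd4a and perhaps Cbfb), so nothing is read from their number. Of these calls, 19 with tissues became 11 with quantile normalization and 12 with the percentile over probes above background (17 to 19 with 1 array left out), and 13 with lines became 7 with that percentile (13 to 15). Directions turned for Sez6 with quantile normalization (heart 0.51, kidney 0.40, liver 0.32, F9 1.08, GC-2 0.96) and with the percentile over probes above background (kidney 0.031, F9 0.23). With the latter they also turned for Ptp4a2 against kidney (0.47) and for Cbfb against F9 (0.87), GC-1 (0.68) and GC-2 (0.40).

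The replicate numbers were not taken to pair the arrays, as the labels name nothing that they share and not every correlation was above 0.1, although the files put all 8 replicate 1 arrays on 1 slide. Deviations from group means correlated between same-numbered arrays with a median r of 0.155, 0.047 and 0.036 for the 3 numbers, the lowest being -0.137 and the highest, among the replicate 1 arrays, 0.291. With a replicate block the counts were 94 for the criteria, 122 for F9, 131 for GC-1, 132 for GC-2, 19 for the neighbours with tissues and 15 with lines. With the slide as a block the criteria gave 93, and within slide 2 alone, chosen after seeing the data, 100.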
